A study of Mus musculus with 24 samples.

Results

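The galectin family was examined in mouse whole lung as 9 genes of a table of 54532: Lgals1, Lgals2, Lgals3, Lgals3bp, Lgals4, Lgals7, Lgals8, Lgals9 and Lgals12. They were taken by gene name, and the family was chosen from earlier results of these same libraries. The test calls given for the members are therefore a description and no independent support for a response of the family. The libraries came from young male C57BL6/j mice with no genetic change named in the labels, in 4 groups of 6: normoxia with vehicle (the control), normoxia with ABT-263, hypoxia with vehicle and hypoxia with ABT-263. Oxygen level and drug ran for 2 days, and ABT-263 was given at 50 mg/kg/day. ABT-263, or navitoclax, inhibits BCL-2 proteins and is used as a senolytic, a drug meant to remove senescent cells. Whole lung mixes many cell types, so fewer cells of a type and less RNA per cell cannot be told apart. The oxygen fraction of hypoxia and the number of animals behind the libraries are not given in the labels, so the p-values measure the spread between libraries, which may be technical.

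Galectins are small soluble lectins that bind β-galactoside sugars on glycoproteins and glycolipids. They are made without a signal peptide, leave the cell by an unconventional route and cross-link glycoproteins on cell surfaces and in the matrix, and some also act inside cells on damaged membranes. Their shared unit is the carbohydrate-recognition domain: prototype galectins (Lgals1, Lgals2, Lgals7) carry it once, the chimera galectin Lgals3 joins it to a proline- and glycine-rich tail, and tandem-repeat galectins (Lgals4, Lgals8, Lgals9, Lgals12) carry it in repeat. Lgals3bp is no lectin: it encodes a secreted glycoprotein of the scavenger receptor type that galectin-3 binds. In the lung, galectin-3 is a long-known product of macrophages and epithelium and galectin-1 of mesenchymal cells.

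The coding sequences of the sugar-binding site show what the lectin members share and where they differ. Each stretch runs from the codons for histidine, any residue, asparagine, proline and arginine to those for tryptophan, glycine, any residue and glutamate, with these contact codons in capitals (GENCODE transcripts of GRCm38, coding strand).
Lgals1 (codons 45 to 72): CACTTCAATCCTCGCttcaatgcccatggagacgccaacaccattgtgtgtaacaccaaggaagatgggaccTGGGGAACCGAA
Lgals2 (codons 45 to 68): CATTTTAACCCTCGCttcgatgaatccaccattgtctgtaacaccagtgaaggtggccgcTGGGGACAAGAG
Lgals7 (codons 50 to 73): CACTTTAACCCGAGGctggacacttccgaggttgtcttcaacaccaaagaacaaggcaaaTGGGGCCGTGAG
Lgals3 (codons 172 to 198): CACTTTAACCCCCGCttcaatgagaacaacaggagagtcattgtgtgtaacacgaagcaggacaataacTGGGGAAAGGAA
Lgals4, first domain (codons 63 to 87): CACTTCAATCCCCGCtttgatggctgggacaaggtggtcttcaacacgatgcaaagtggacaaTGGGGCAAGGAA
Lgals4, second domain (codons 240 to 262): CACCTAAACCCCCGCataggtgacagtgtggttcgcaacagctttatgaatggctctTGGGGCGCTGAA
Lgals8, first domain (codons 64 to 88): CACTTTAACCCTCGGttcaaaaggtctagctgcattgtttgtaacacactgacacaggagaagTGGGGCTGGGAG
Lgals8, second domain (codons 228 to 251): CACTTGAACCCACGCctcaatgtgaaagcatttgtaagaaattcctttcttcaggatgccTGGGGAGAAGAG
Lgals9, first domain (codons 60 to 84): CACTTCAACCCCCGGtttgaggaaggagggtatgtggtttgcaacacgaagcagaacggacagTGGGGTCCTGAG
Lgals9, second domain (codons 265 to 288): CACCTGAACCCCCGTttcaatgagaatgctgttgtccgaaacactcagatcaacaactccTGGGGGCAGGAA
Both contact motifs occurred 1 time in Lgals1, Lgals2, Lgals3 and Lgals7 and 2 times in Lgals4, Lgals8 and Lgals9. They occurred 0 times in Lgals3bp and, with these letters, also 0 times in Lgals12, whose sugar-binding site is known to be divergent. Among stretches of equal length the closest pair was the first domains of Lgals4 and Lgals9, with 52 of 75 bases the same (69.3%), and Lgals2 and Lgals7 shared 45 of 72 bases (62.5%). The predicted proteins ran from 130 residues for Lgals2 to 577 for Lgals3bp.

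The members lie on 6 chromosomes by the GENCODE M21 annotation of GRCm38. Lgals1 (chromosome 15, 78926725 to 78930465, plus strand) and Lgals2 (chromosome 15, 78850860 to 78855529, minus strand) are 71.2 kb apart. Lgals4 (chromosome 7, 28833854 to 28841708, plus strand) and Lgals7 (chromosome 7, 28863853 to 28866284, plus strand) are 22.1 kb apart. Lgals3 lies on chromosome 14 (47367751 to 47386160, plus strand), and Lgals9 (78962974 to 78984946) and Lgals3bp (118392751 to 118402092) lie on the minus strand of chromosome 11. Lgals8 lies on chromosome 13 (12439415 to 12464944) and Lgals12 on chromosome 19 (7596660 to 7607193), both on the minus strand. Lgals2, Lgals7 and Lgals8 each overlap 1 gene on the opposite strand (Cdc42ep1, Gm10648 and Heatr1). The strand setting of the counting is not given in the sources used here, so reads of these partners may enter the values of those 3 members.

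The libraries held between 12643484 and 17295233 expected counts. Lung epithelial markers were high in every library: surfactant protein Sftpc, for one, was at 26100 ± 3080 CPM (counts scaled to a common library size, mean ± SD, n = 6) in the control. On principal components 3, 4 and 5 normoxia vehicle replicate 2, hypoxia ABT-263 replicate 1 and normoxia ABT-263 replicate 5 were the extremes. Their scores were 34.1, 34.3 and -34, and the next largest in size were 25.4, 33.6 and 17.4. They are called the 3 libraries that stood apart, although this rule always picks a library and the margin on component 4 was small. Values without these 3 libraries are given for Lgals2, Lgals3, Lgals3bp and Lgals4, and not for every member. Between 2.09% and 6.28% of a library's counts came from the mitochondrial genome, and this share is given where members moved with it. All values are CPM scaled by the trimmed mean of M-values (TMM), and tests are edgeR quasi-likelihood F tests with Benjamini-Hochberg adjustment over 16935 genes, with a threshold of 0.05.

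The make-up of the family differed between normoxia and hypoxia. Values per kb use the union of all annotated exons of a gene as its length, so the order, shares and ratios depend on that choice. In plain CPM, Lgals3 (121 ± 12.3) lay above Lgals1 (101 ± 10.8) in the control. In the control lung the per-length level, in CPM per kb of exon, was highest for Lgals1 at 112 ± 12.0, followed by Lgals3 at 64.9 ± 6.63 (SD, n = 6). Lgals9 (30.2 ± 5.33) and Lgals3bp (29.3 ± 3.13) came next and did not differ beyond their spread, and Lgals8 stood at 19.3 ± 1.04. Lgals2 (6.83 ± 2.76), Lgals4 (5.81 ± 1.08), Lgals12 (2.93 ± 0.569) and Lgals7 (1.11 ± 0.838) closed the order, with Lgals2 and Lgals4 within each other's spread. Summed over the 9 genes, the family stood at 272 ± 20.3 CPM per kb in the control and 768 ± 82.1 in hypoxia with vehicle. Under ABT-263 the sums were 265 ± 59.6 in normoxia and 808 ± 120 in hypoxia, and every hypoxia library lay above every normoxia library. Lgals1 alone made up 37.1% to 43.5% of the sum in the control libraries and 70.1% to 78.1% in hypoxia with vehicle. The share of Lgals3, the second in the order in all 4 groups, went from between 22% and 26% to between 8.87% and 15.1%. The ratio of Lgals1 to Lgals3 per kb thereby went from 1.73 ± 0.173 to 6.29 ± 1.47, and it was 1.79 ± 0.0618 and 6.38 ± 1.43 in the normoxia and hypoxia groups with ABT-263.

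**Figure D1:**
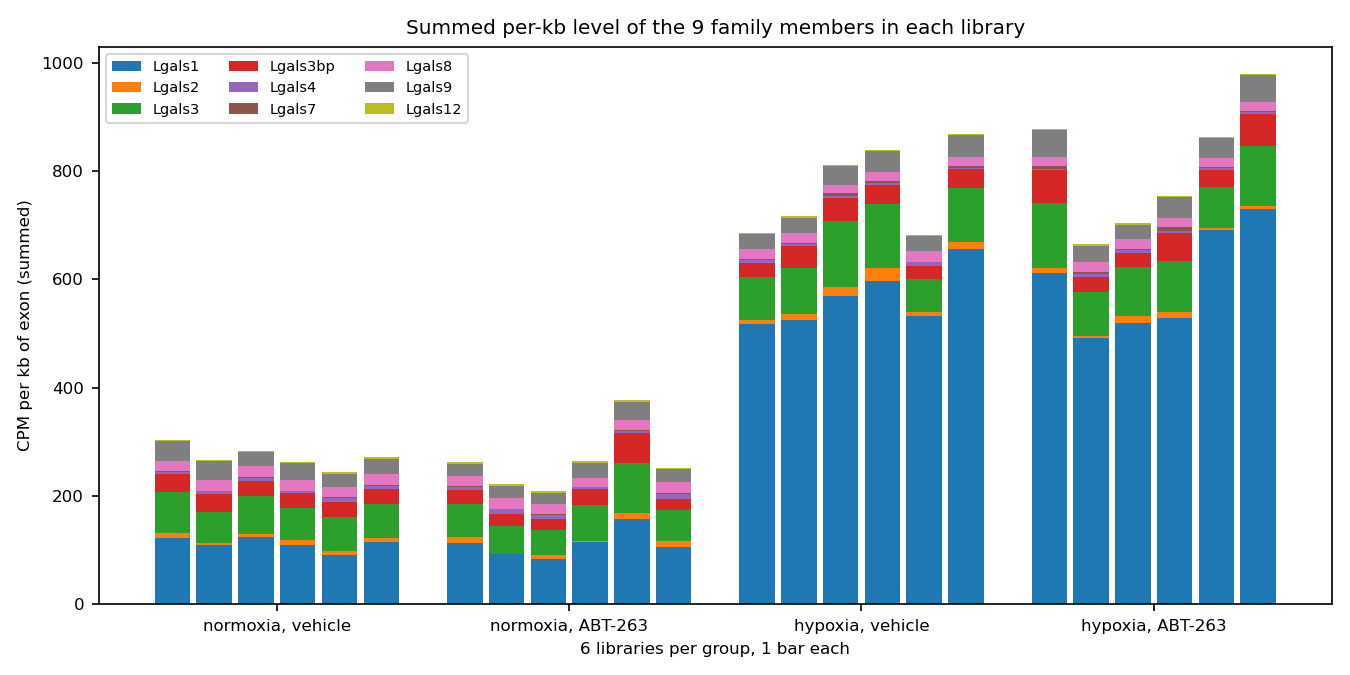
Summed per-kb level (CPM per kb of exon) of the 9 members in each of the 24 libraries, 1 stacked bar per library and 6 libraries per group, with 1 colour per gene. The normoxia bars reach at most 378 and the hypoxia bars at least 664.5, and the Lgals1 segment at the base makes up most of the difference.

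Of the 9 members, 2 were called in hypoxia under vehicle, Lgals1 and Lgals3, both higher, where 35.7% of all genes tested were called, 18.9% upward and 16.8% downward. The median log2 fold change was 0.21 over the members and -0.04 over all genes tested. Under ABT-263 the same contrast called 5 members, Lgals1, Lgals3, Lgals7 and Lgals9 higher and Lgals4 lower, where 41% of all genes were called, 21.6% upward and 19.4% downward, and the medians were 0.55 and -0.02. Because the family was chosen with these contrasts in view, nothing is read from its counts against those shares. The 2 contrasts share no library, but whether a member differed between them is the interaction, which called 0 members and 0% of all genes tested. At an unadjusted p under 0.05 the interaction held 0 members and 625 genes. The groups of both contrasts were fully apart for 1 member, Lgals1, while 17.8% of all genes had groups that did not overlap under vehicle and 14.6% under ABT-263.

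**Figure D2:**
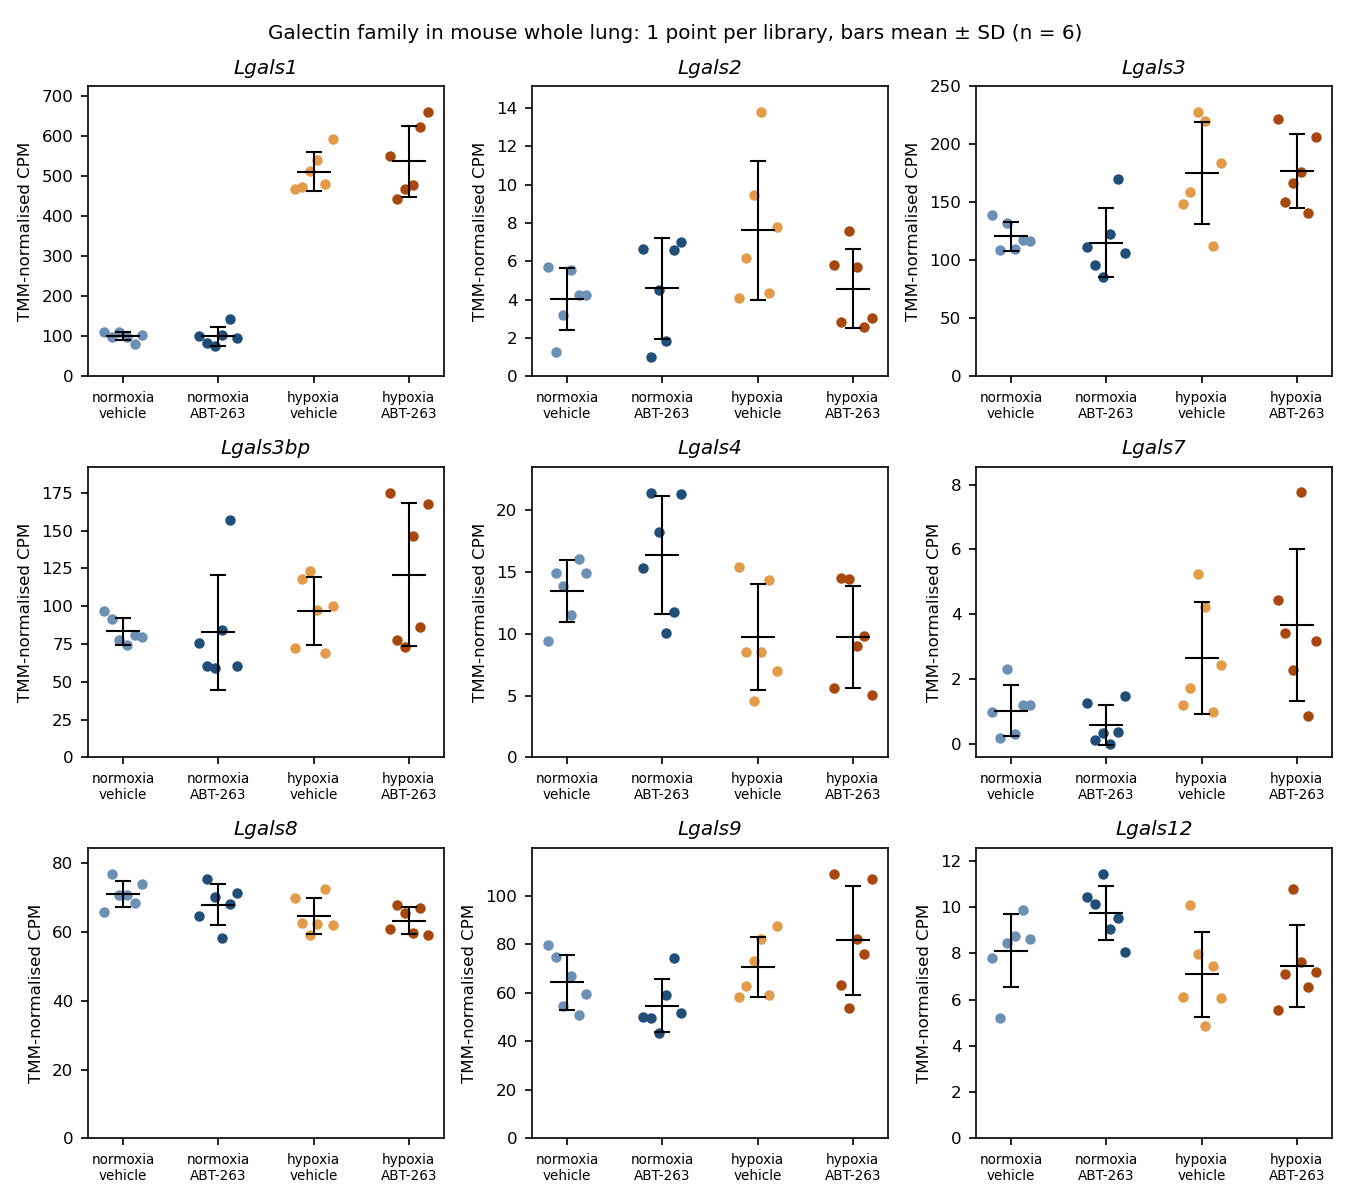
TMM-normalised CPM of each member (linear axes from 0, 1 panel per gene) in the 4 groups, 1 point per library, with mean and SD over 6 libraries. The 12 Lgals1 points of the hypoxia groups lie above 443 and the 12 of the normoxia groups reach at most 142, whereas the points of the other members overlap between normoxia and hypoxia.

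Among the prototype galectins, Lgals1, whose product forms dimers and is abundant in mesenchymal cells and muscle, gave the largest called rise under vehicle. Its lowest, median and highest library values were 81.4, 101 and 111 CPM in the control and 467, 498 and 593 CPM in hypoxia with vehicle. In normoxia with ABT-263 they were 75.2, 98.3 and 142 CPM, and in hypoxia with ABT-263 they were 444, 515.1 and 660 CPM. All 12 hypoxia libraries were therefore above all 12 normoxia libraries. The log2 fold change was 2.34 under vehicle (SE 0.13, 5.07-fold, 95% interval 4.20 to 6.13, edgeR adjusted p = 1.92e-12). Under ABT-263 it was 2.43 (SE 0.13, 5.38-fold, adjusted p = 1.27e-12). Between the 2 oxygen contrasts the difference was 0.08 (95% interval -0.28 to 0.45).

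The genes whose log2 CPM ran closest to that of Lgals1 over the 24 libraries were Tpm4, a non-muscle tropomyosin (Pearson r 0.988), Tagln, the smooth muscle protein transgelin (0.981), and the gene model Gm20390 (0.980). These coefficients hold the step between normoxia and hypoxia that all 4 genes share. After the group means were taken out, r was 0.78 for Tpm4, 0.34 for Tagln and 0.63 for Gm20390. Some smooth muscle and collagen genes also rose in hypoxia. The summed level of the smooth muscle markers Acta2, Myh11 and Tagln had a median of 548 CPM in the control and 1780 CPM in hypoxia with vehicle, and the highest control was at 629 CPM and the lowest hypoxia library at 1420 CPM. Tagln (269 ± 22.8 to 1110 ± 120 CPM) and the actin Acta2 (201 ± 20.2 to 548 ± 108 CPM) rose, whereas Myh11, the smooth muscle myosin heavy chain, had a log2 fold change of -0.12 (SE 0.14, adjusted p = 0.512). The 4 fibroblast markers summed to medians of 629 and 751 CPM, and 2 of them, the collagen genes Col1a1 (0.55) and Col1a2 (0.41), rose. The other 2 did not pass, the proteoglycan Dcn (-0.22, adjusted p = 0.480) and the receptor Pdgfra (0.16, adjusted p = 0.365). All 4 red cell globin genes rose by log2 fold changes of 1.60 to 2.22, and their sum had medians of 3860 CPM in the control and 15400 CPM in hypoxia with vehicle. Of 3 platelet genes 2 rose (Pf4 1.05, Gp9 0.77). T cell markers fell in 3 of 4 cases (Cd3e -0.82, Cd4 -0.75, Cd8a -1.05). Over all genes tested, 18.9% rose and 16.8% fell in this contrast. The part of these cell types in the level of Lgals1 was not tested.

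Lgals2, a prototype galectin best known from the stomach and intestine, was low and varied strongly between libraries. Its lowest, median and highest values were 1.29, 4.24 and 5.71 CPM in the control and 4.11, 6.99 and 13.8 CPM in hypoxia with vehicle. In normoxia and hypoxia with ABT-263 the medians were 5.55 and 4.36 CPM, with ranges of 1.01 to 7.01 and 2.56 to 7.58 CPM. The groups overlapped in every comparison. Under vehicle the log2 fold change was 0.91 (SE 0.41, 95% interval 0.08 to 1.75) and did not pass (adjusted p = 0.0826), but a fit of only the 2 groups called it (adjusted p = 0.0469). Under ABT-263 it was -0.01 (95% interval -0.86 to 0.84). The genes most like Lgals2 over the libraries were mesothelin, Msln (r 0.896, and 0.90 after removal of the group means), Rspo1 (0.868) and Nkx6-2 (0.868).

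Lgals7, the galectin of stratified epithelia such as skin, had the lowest mean CPM of the members in all 4 groups and 0 to 101 reads per library. Per kb of exon, Lgals12 was lower still in both hypoxia groups (2.56 against 2.85 with vehicle, 2.69 against 3.95 with ABT-263), within the spread of Lgals7. The control libraries ran from 0.168 to 2.32 CPM with a median of 1.08, and normoxia with ABT-263 ran from 0 to 1.48 CPM with a median of 0.350. The hypoxia groups ran from 0.994 to 5.26 CPM (median 2.08) with vehicle and from 0.853 to 7.77 CPM (median 3.30) with ABT-263. In hypoxia with ABT-263, 5 of 6 libraries lay above the highest normoxia library with the drug, and under vehicle 3 of 6 lay above the highest control. Hypoxia gave a log2 fold change of 1.37 under vehicle (SE 0.60, adjusted p = 0.0750) and 2.62 under ABT-263 (SE 0.63, adjusted p = 0.00213), and the difference between these was 1.25 with a 95% interval of -0.56 to 3.06. The vehicle contrast passed without normoxia vehicle replicate 3 (adjusted p = 0.0314) or hypoxia vehicle replicate 5 (0.0460). The genes most like Lgals7 were Slurp1 (r 0.886), the P-cadherin gene Cdh3 (0.865) and Apol7a (0.860). Markers of squamous and basal epithelium (Krt4, Krt5, Krt13, Krt14, Trp63) were near the detection limit everywhere: they summed to 1.83 to 3.66 CPM in the control and 1.38 to 3.53 CPM in hypoxia with vehicle, and to 1.27 to 2.31 and 1.85 to 2.94 CPM with ABT-263. Krt13 fell in hypoxia under vehicle (-1.01, adjusted p = 0.0159). After the group means were removed, Lgals7 and Lgals2 rose and fell together over the 24 libraries (r 0.67, permutation p = 0.00173, adjusted over 36 pairs 0.00692). Spearman's rho was 0.60 (permutation p = 0.00565), and r was 0.61 without the 2 libraries farthest from the median of Lgals2.

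Lgals3, the chimera galectin of macrophages and epithelia, rose less than Lgals1. Its lowest, median and highest values were 109, 117 and 139 CPM in the control and 112, 171 and 228 CPM in hypoxia with vehicle. Under ABT-263 they were 85.7, 109 and 170 CPM in normoxia and 141, 171 and 222 CPM in hypoxia. Of the hypoxia vehicle libraries, 5 of 6 lay above every control, and replicate 5 lay within the control range. The log2 fold change was 0.54 under vehicle (SE 0.16, 1.45-fold, adjusted p = 0.00993) and 0.62 under ABT-263 (SE 0.16, 1.54-fold, adjusted p = 0.00338). The genes most like it were annexin A2, Anxa2 (r 0.941), Gdi2 (0.932) and Rtca (0.930). Macrophage markers did not move as 1 group: of the 7 alveolar macrophage genes 1 rose, the secreted chitinase-like Chil3 (log2 fold change 1.60), from 177 ± 28.5 to 536 ± 135 CPM. The sum of the 7 was 218 to 307 CPM in the control and 407 to 786 CPM in hypoxia with vehicle, and that of the 6 without Chil3 was 68.7 to 98.5 and 65.5 to 104 CPM. Of the 8 monocyte and interstitial macrophage genes Cd68, a lysosomal glycoprotein, rose (0.52) and the growth factor receptor Csf1r fell (-0.63). Over all genes tested, 18.9% rose and 16.8% fell under vehicle. The 8 genes summed to 216 to 283 CPM in the control and 181 to 247 CPM in hypoxia with vehicle. The part of these cells in the level of Lgals3 was not tested.

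The promoter of Lgals3 is shown because it holds the core of the site bound by hypoxia-inducible factor (HIF). The window is the 250 bases before the RefSeq start on GRCm38.p6, chr14:47373610-47373859, plus strand, with the HIF core in capitals at base -90 from the start.
Lgals3: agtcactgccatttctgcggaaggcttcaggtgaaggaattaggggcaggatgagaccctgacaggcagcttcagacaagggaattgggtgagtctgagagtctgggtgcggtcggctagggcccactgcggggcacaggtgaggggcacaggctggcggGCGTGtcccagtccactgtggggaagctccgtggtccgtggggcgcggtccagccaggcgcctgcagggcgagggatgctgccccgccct
The search covered ACGTG and GCGTG on both strands of 300 bases, 250 before and 50 after the start, and 7 of the 9 members (not Lgals1 and Lgals12) matched an entry. The core was found in 2 of those 7, Lgals3 and Lgals4, and in 44.0% of all 32544 promoters. Lgals4 held 2 matches and Lgals3 held 1. The log2 fold change of Lgals4 in hypoxia was negative, -0.46 under vehicle and -0.75 under ABT-263. The part of HIF in the level of either gene was not tested.

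Lgals3bp, the secreted partner of galectin-3, was not called in any comparison. Its lowest, median and highest values were 74.2, 80.4 and 97.2 CPM in the control and 68.9, 98.7 and 124 CPM in hypoxia with vehicle. In normoxia with ABT-263 they were 58.9, 68.0 and 157 CPM, and in hypoxia with ABT-263 they were 73.3, 116 and 175 CPM. The highest normoxia library was ABT-263 replicate 5, 1 of the 3 that stood apart. The log2 fold change was 0.21 under vehicle (SE 0.24, adjusted p = 0.523) and 0.55 under ABT-263 (SE 0.24, adjusted p = 0.0728). Without that library the latter was 0.83 and passed (adjusted p = 0.00309), and without the 3 libraries that stood apart it was 0.70 (adjusted p = 0.0111). It also passed without hypoxia ABT-263 replicate 2 (0.65, adjusted p = 0.0369) or 3 (0.66, adjusted p = 0.0318). Lgals3bp is induced by interferon. The gene most like it was the interferon-induced membrane protein gene Ifitm3 (r 0.917), closely followed by Stt3a (0.909) and Tmed10 (0.905). After removal of the group means, 12.8% of the other genes had an r beyond 0.7 in size with Lgals3bp. The 14 interferon-stimulated genes of a separate list summed to a median of 469 CPM in the control and 476 CPM in hypoxia with vehicle, and of 437 CPM in normoxia and 545 CPM in hypoxia with ABT-263. They reached 1130 CPM, the highest sum of the 24 libraries, in normoxia ABT-263 replicate 5. The summed monocyte and T cell markers of that library were also the highest of all, at 473 and 61.8 CPM. Hypoxia ABT-263 replicate 1, with the highest Lgals3bp of all 24 (175 CPM), had an interferon sum of 423 CPM, rank 22 of 24. The sum of rank 2, 604 CPM in normoxia vehicle replicate 2, came with Lgals3bp at 91.6 CPM. The part of interferon in the level of Lgals3bp was not tested. In hypoxia under vehicle 1 of the 14 rose (Rsad2, log2 fold change 1.24) and 2 fell (Ifi44 -1.06, Usp18 -0.44). Over all genes tested, 18.9% rose and 16.8% fell.

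Of the 4 tandem-repeat galectins 0 were called in hypoxia under vehicle, where 35.7% of all genes tested were called. With so few genes nothing is read from this count. Lgals4, a galectin of the gut epithelium, had lowest, median and highest values of 9.42, 14.4 and 16.1 CPM in the control and 4.59, 8.51 and 15.4 CPM in hypoxia with vehicle. With ABT-263 they were 10.1, 16.8 and 21.4 CPM in normoxia and 5.07, 9.40 and 14.5 CPM in hypoxia. The hypoxia groups spread over the lower end and overlapped normoxia. The log2 fold change was -0.46 under vehicle (SE 0.28, adjusted p = 0.199) and -0.75 under ABT-263 (SE 0.28, adjusted p = 0.0322). The call of Lgals4 under ABT-263 lay near the threshold, while its log2 fold change stayed between -0.91 and -0.62 in all 31 alternatives. It was lost without normoxia ABT-263 replicate 2, 3 or 6 or hypoxia ABT-263 replicate 1, 4, 5 or 6, with adjusted p between 0.0501 and 0.0810. It was also lost without the 3 libraries that stood apart (-0.71, adjusted p = 0.0600) and with no filter on low counts (adjusted p = 0.0751). The other 22 alternatives kept the call. The lowest adjusted p, 4.87e-07, came with the first component of the residuals as covariate. That component was computed from these same libraries, so smaller p-values are partly built in and add no support to the call. Of the gut epithelial markers, Cdx2 was at 0 reads in every library, Fabp2 averaged 0.319 ± 0.241 CPM in the control, and Vil1, which was called higher (log2 fold change 1.71), went from 0.772 ± 0.268 to 2.54 ± 0.508 CPM. The genes most like Lgals4 were Klhdc8b (r 0.977), Tle2 (0.974) and Pabpn1 (0.973). Lgals6, a close mouse relative of Lgals4, was not analysed here.

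Lgals9, whose product is a ligand of the immune checkpoint receptor encoded by Havcr2, lay at 51.0 to 79.7 CPM in the control (median 63.2) and 58.2 to 87.5 CPM in hypoxia with vehicle (median 68.1). With ABT-263 it lay at 43.7 to 74.4 CPM in normoxia (median 50.9) and 53.7 to 109 CPM in hypoxia (median 79.2), where 4 of 6 libraries were above the highest normoxia library. Its log2 fold change in hypoxia was 0.13 under vehicle (SE 0.16, adjusted p = 0.558) and 0.58 under ABT-263 (SE 0.16, adjusted p = 0.00625). The call under ABT-263 was kept in all 31 alternatives (0.48 to 0.69), among them the fit without the 3 libraries that stood apart. The difference between the vehicle and ABT-263 contrasts was 0.45 (95% interval -0.02 to 0.92, unadjusted p = 0.0597, adjusted p = 0.991), the smallest interaction p among the members. The genes most like it were lysosomal lipase Lipa (r 0.948), the proteoglycan gene Bgn (0.935) and Sumf1 (0.914). Lgals9 is an interferon-induced gene, and its promoter was the only 1 of the 7 with the core of an interferon-stimulated response element. It is shown as the 250 bases before the RefSeq start (chr11:78984925-78985174, GRCm38.p6, minus strand), with the core in capitals at base -55, on the opposite strand of the gene.
Lgals9: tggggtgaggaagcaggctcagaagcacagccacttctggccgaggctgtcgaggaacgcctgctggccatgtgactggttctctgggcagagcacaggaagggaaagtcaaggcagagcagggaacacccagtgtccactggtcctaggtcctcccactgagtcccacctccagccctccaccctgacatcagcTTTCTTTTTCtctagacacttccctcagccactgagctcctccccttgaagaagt
The core was searched as GAAA, any 2 bases and GAAA again, on both strands of 300 bases, and was held by 3.45% of all 32544 promoters. A second match lay at base 16 after the start. The part of interferon in the level of Lgals9 was not tested.

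Lgals8, whose product senses damaged vesicles, was the steadiest member. It lay at 65.9 to 76.8 CPM in the control and 59.2 to 72.6 CPM in hypoxia with vehicle, and its coefficient of variation within groups was 5.40% to 8.72%. The log2 fold change was -0.13 under vehicle (95% interval -0.27 to 0.01, adjusted p = 0.126) and -0.10 under ABT-263 (95% interval -0.24 to 0.04, adjusted p = 0.225). Lgals12, a galectin of adipocytes, lay at 5.20 to 9.87 CPM in the control and 4.86 to 10.1 CPM in hypoxia with vehicle (log2 fold change -0.19, SE 0.17, adjusted p = 0.390). Under ABT-263 it went from 8.05 to 11.4 CPM in normoxia to 5.56 to 10.8 CPM in hypoxia, a log2 fold change of -0.39 (SE 0.17, adjusted p = 0.0611). Of 31 alternatives, 9 called this fall of Lgals12, among them DESeq2 and limma-voom (adjusted p = 0.0467 and 0.0368), and the lowest adjusted p was 0.0125, without hypoxia ABT-263 replicate 3. All 4 adipocyte markers tested fell in hypoxia under vehicle, where 16.8% of all genes tested fell. Among them were adiponectin Adipoq (log2 fold change -2.79) and the lipid droplet coat Plin1 (-3.03). The sum of the 5 markers had medians of 29.7 CPM in the control and 7.59 CPM in hypoxia with vehicle. Under ABT-263, where 41% of all genes tested were called, 0 of the 4 were called (Adipoq -0.27, Plin1 -0.40, Retn -0.32, Cidec -0.04). The medians of the sum were 13.2 CPM in normoxia and 13.4 CPM in hypoxia. The genes most like Lgals12 were Spata33 (r 0.846), Ankrd66 (0.842) and Fank1 (0.822), and those most like Lgals8 were 2610507I01Rik (0.934), Zfyve26 (0.928) and Acox3 (0.914).

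**Figure D3:**
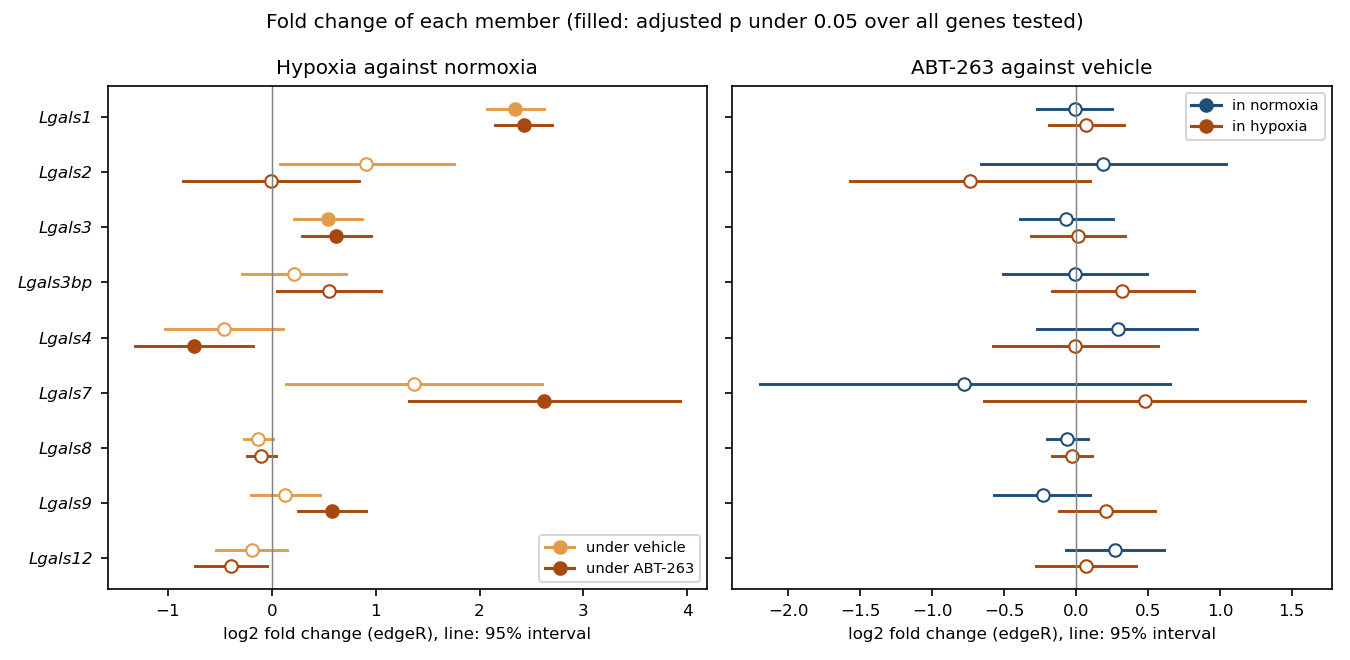
Log2 fold change of each member (points) with its 95% interval (lines) for hypoxia against normoxia (left) and ABT-263 against vehicle (right), with filled points at an edgeR adjusted p under 0.05 over all 16935 genes. Lgals1 stands apart from 0 under both vehicle (2.34) and ABT-263 (2.43), and no point of the right panel is filled.

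ABT-263 itself called 0 members at either oxygen level. In normoxia 0.0413% of all genes tested were called, and in hypoxia 0%. With an unadjusted p under 0.05, 0 members stood among 1154 genes in normoxia and 0 among 543 in hypoxia. DESeq2 and limma-voom also called 0 members in both. For Lgals1 the difference between drug and vehicle was bounded tightly: the log2 fold change was -0.01 in normoxia (95% interval -0.27 to 0.25) and 0.07 in hypoxia (-0.19 to 0.33). For Lgals3 it was -0.07 (-0.39 to 0.26) and 0.01 (-0.31 to 0.34). The intervals were wide for the low members, such as Lgals7 in normoxia (-2.20 to 0.65) and Lgals2 in hypoxia (-1.57 to 0.10), where a drug effect was not detectable at this depth and spread. The smallest unadjusted p of a member was 0.0812, for Lgals2 in hypoxia (log2 fold change -0.74).

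Beyond the members, Lgalsl, the galectin-related gene whose product lacks lectin activity, rose from 33.7 ± 3.71 CPM in the control to 61.6 ± 5.43 CPM in hypoxia with vehicle (n = 6). Its groups did not overlap, and its log2 fold change was 0.87 (SE 0.10, adjusted p = 3.19e-07) under vehicle and 0.96 (SE 0.10, adjusted p = 8.22e-08) under ABT-263. In the drug contrasts it was 0.00 in normoxia and 0.10 in hypoxia (adjusted p = 0.998 and 1). Grifin, the galectin-like protein of the lens, had 0 to 4 reads per library and was not tested.

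Of 12 genes that make or modify the sugars galectins bind, or assist in this, 5 rose and 0 fell in hypoxia under vehicle. Over all genes, 18.9% rose and 16.8% fell, and the median log2 fold change was 0.20 for the 12 against -0.04. The 5 included Mgat2, which starts a branch of N-glycans (40.7 ± 4.25 to 66.4 ± 7.50 CPM, log2 fold change 0.71, adjusted p = 2.13e-06), and the galactosyltransferase B4galt1 (0.41). They were joined by B3gnt2, which extends poly-N-acetyllactosamine (0.64), and by the core O-glycan enzyme C1galt1 (0.28) with its chaperone C1galt1c1 (0.31). Mgat5, the branching enzyme best known for raising galectin-3 binding, had a log2 fold change of -0.22 (adjusted p = 0.122). The drug called 0 of the 12 at either oxygen level, where 0.0413% of all genes tested were called in normoxia and 0% in hypoxia. Nothing is read from this count. The smallest p was held by the sialyltransferase St6gal1 in normoxia (-0.38, adjusted p = 0.643) and by Mgat2 in hypoxia (0.12, adjusted p = 1).

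Of 20 surface and matrix glycoproteins known to be bound by galectins, 5 rose and 2 fell in hypoxia under vehicle, against 18.9% and 16.8% of all genes, with a median log2 fold change of 0.04. The matrix glycoprotein fibronectin, Fn1, rose from 107 ± 15.6 to 268 ± 36.6 CPM (log2 fold change 1.32), podoplanin Pdpn by 0.92, basigin Bsg by 0.53, the lysosomal Lamp2 by 0.36 and integrin Itgb1 by 0.38. Integrin Itga3 (-0.39) and the VEGF receptor Kdr (-0.25) fell. Of 10 intracellular partners 2 rose, the galectin-3-binding annexin Anxa7 (0.38) and Trim16 (0.35), a ubiquitin ligase that works with galectin-3 at damaged membranes, and 0 fell, against 18.9% and 16.8% of all genes. Under ABT-263 treatment at either oxygen level 0 genes of these lists or of the interferon-stimulated list were called. Over all genes tested, the drug called 0.0413% in normoxia and 0% in hypoxia, so nothing is read from these counts. The smallest p in normoxia belonged to Kdr (-0.33, adjusted p = 0.233), Anxa7 (0.12, adjusted p = 0.840) and Irf7 (0.46, adjusted p = 0.794). In hypoxia it belonged to Kdr (-0.15), Trim16 (-0.26) and Rsad2 (0.86), each with an adjusted p of 1.

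Within groups, several members varied together with the mitochondrial share of the libraries. After removal of group means, Lgals9 was lower where the share was higher (Pearson r -0.91 over 24 libraries, permutation p = 1e-05, the smallest that 100000 permutations within groups can give, adjusted over 9 members 3e-05; Spearman's rho -0.91, permutation p = 1e-05). Lgals4 went the other way (r 0.81, rho 0.85, permutation p = 1e-05 for both). Without the 2 libraries farthest from the median share, r was -0.90 for Lgals9 and 0.82 for Lgals4. Lgals3bp (-0.84), Lgals3 (-0.76) and Lgals1 (-0.64) followed Lgals9, and Lgals8 (0.60) followed Lgals4. Lgals12 had r 0.44 (adjusted permutation p = 0.0387) and rho 0.41 (adjusted permutation p = 0.0676). Inside single groups r ran from -0.96 to -0.86 for Lgals9 and from 0.71 to 0.94 for Lgals4. It ran from -0.96 to -0.03 for Lgals3 and from 0.10 to 0.89 for Lgals8, so those 2 were not alike in every group. Pairs of members showed the same split: Lgals4 and Lgals9 had r -0.78 (rho -0.82, adjusted permutation p = 0.00072 and 0.0006 over 36 pairs), and Lgals4 and Lgals8 had r 0.81 (rho 0.81). Of all genes tested, 14.8% had an r beyond 0.7 in size with the mitochondrial share and 38.6% beyond 0.5, and 0.136% were at least as far from 0 as Lgals9. With Lgals4 itself 23.1% of the other genes had an r beyond 0.7 in size, with Lgals9 12.7% and with Lgals1 1.06%. The share itself had medians of 3.96% in the control, 4.74% in normoxia with ABT-263, 4% in hypoxia with vehicle and 4.07% in hypoxia with ABT-263. With the first component of the residuals, which held 26.6% of the variance within groups, as a covariate, the log2 fold changes of Lgals4 (-0.55, adjusted p = 7.98e-05) and Lgals8 (-0.14, adjusted p = 0.0113) passed in hypoxia under vehicle. That covariate was chosen after the data were seen and was computed from the residuals of these same libraries. Smaller p-values are therefore partly built in, and these passes add no support. The part of the mitochondrial share in the members' levels was not tested.

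**Figure D4:**
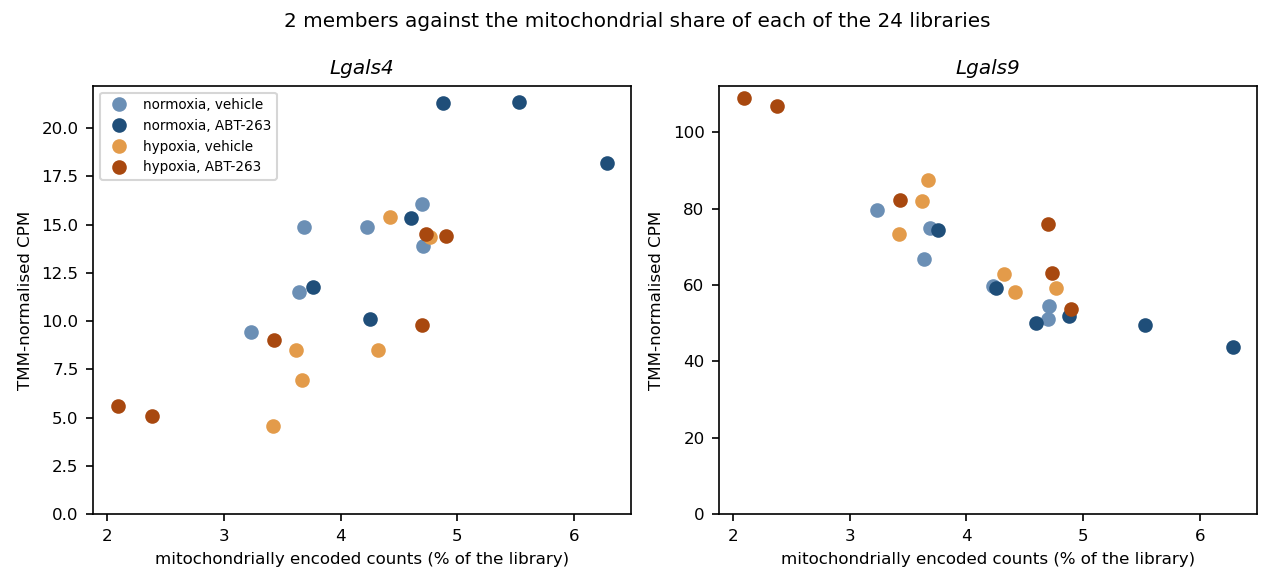
TMM-normalised CPM of Lgals4 (left) and Lgals9 (right) against the share of mitochondrially encoded counts (percent) in the 24 libraries, coloured by group. Lgals4 is higher and Lgals9 lower in libraries with a higher share, and the 2 libraries with the lowest shares, 2.09% and 2.38%, are both hypoxia with ABT-263.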

How the data were processed

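The authors deposited expected counts per gene for 24 whole-lung libraries. Per the labels' protocols, a stranded mRNA kit was used on column-purified RNA. The submitters' processing notes name Trimmomatic, STAR, RSEM and GRCm38. The sources used here do not give versions or the strand setting. RSEM divides ambiguous reads between genes by estimation. Rounded counts went into edgeR 4.0.16 (R 4.3.3): filterByExpr with a minimum count of 10 (16935 genes), TMM, a robust quasi-likelihood F test with 1 mean per group (20 residual degrees of freedom) and Benjamini-Hochberg adjustment over all genes. Alternatives used limma 3.58.1 and DESeq2 1.42.0. Correlations use log2 CPM with a prior count of 2. All 9 members are named, with Lgalsl and Grifin, up to 4 called genes of each list with the smallest p, and the 3 genes with the highest r for each member. Col1a1, Col1a2, Vil1 and other markers, Itgb1, Itga3, Kdr, B3gnt2 and Mgat5 were added after their values were seen. Members and lists were chosen with earlier results of these data known. IDs matched GENCODE M21 for 99.93% of rows. Libraries of a group differed by more than sampling noise (chi-square per degree of freedom of at least 6.59), so none were merged. The test was tried on simulated data.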

Additional observations from a re-analysis of the deposited data

Results flagged for a closer look

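Among 36 combinations of member and group, 1 library lay farther from the rest of its group than Dixon's ratio allows at its 95% level, and chance flags about 1 in 20 groups. Lgals3bp was at 157 CPM in normoxia ABT-263 replicate 5, where the next highest library of the group was at 84.3 CPM and the gap took 0.742 of the range. The same library held the highest Lgals1 (142 CPM), Lgals3 (170 CPM) and Lgals9 (74.4 CPM) of its group, and its interferon-stimulated genes summed to 1130 CPM. It also had the lowest mitochondrial share of its group, 3.76% where the highest was 6.28%. The cause of its high Lgals3bp was not tested. Without it the log2 fold change of Lgals3bp in hypoxia under ABT-263 was 0.83 in place of 0.55.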

How the results depend on the processing

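Lgals1 and Lgals3 kept their direction and call in both oxygen contrasts under all 31 alternatives, with log2 fold changes of 2.29 to 2.37 and 0.45 to 0.64 under vehicle and 2.36 to 2.55 and 0.54 to 0.76 under ABT-263. Over 1386 recomputed member values, 1315 kept direction and side of the threshold, 9 lost a call (all Lgals4 under ABT-263), 19 gained one and 43 changed sign, 0 of them with a call. With 1 library left out, the number of members called ran from 2 to 3 in hypoxia under vehicle and 4 to 7 under ABT-263, and was 0 for both drug contrasts and the interaction. Over all genes, those fits called 5166 to 6547 under vehicle and 5954 to 7340 under ABT-263, of 17035 to 17081 tested. For the drug contrasts they called at most 13 genes in normoxia and 1 in hypoxia, and for the interaction 0. With the first component of the residuals as covariate, 4 members were called in hypoxia under vehicle in place of 2. That fit called 8398 of all 16935 genes, where 6053 were called without the covariate. The sign changes were near 0. In normoxia the drug's log2 fold change became 0.00 for Lgals1 and Lgals3bp with RLE normalization and with DESeq2, and -0.14 for Lgals2 without the 3 libraries that stood apart. With 1 library left out it ran from -0.14 to 0.06 for Lgals1, 0.00 to 0.40 for Lgals2, -0.21 to 0.01 for Lgals3 and -0.30 to 0.07 for Lgals3bp. In hypoxia it became -0.06 for Lgals3 and 0.11 for Lgals4 without the 3 libraries. With 1 library left out it ran from -0.09 to 0.10 for Lgals3, -0.16 to 0.17 for Lgals4, -0.06 to 0.00 for Lgals8 and -0.06 to 0.19 for Lgals12. For hypoxia under ABT-263, Lgals2 was at 0.17 with limma-voom, 0.04 without the 3 libraries and -0.23 to 0.14 with 1 library left out. The interaction ran from -0.02 to 0.22 for Lgals3 and -0.01 to 0.07 for Lgals8. The cause of these shifts was not tested. The alternatives without the 3 libraries and with the covariate were chosen after seeing the data. No paired analysis was possible because the labels number no animals and replicate numbers only name libraries. At 0 to 101 reads per library, depth limits Lgals7 most.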
